A study of Homo sapiens with 8 samples.

Results

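The H/ACA box small nucleolar RNAs (snoRNAs) were examined as the rows of the count table whose name starts with SNORA, leaving out SNORA73A and SNORA73B. The rule took 146 of 2962 small RNA features. It also took in SNORA73.1, a row that carries the SNORA73 number. The cells were HEK293, a human embryonic kidney line. They were transfected with Lipofectamine RNAiMax and 50 nM of a synthetic RNA and collected after 48 h. In 4 libraries that RNA was a scramble control mimic, and in 4 libraries it imitated a fragment cut from the 3′ side of tRNA-Asp-GTC, a tRNA-derived RNA (tDR). All 8 libraries were made from TRIzol total RNA by OTTR-seq, where both adapters are joined during reverse transcription. Nothing in the labels tells whether separate cultures gave the replicates, so p-values measure only how far these libraries scatter, which may be technical. Values per library are given below in the order of replicates 1 to 4.

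H/ACA snoRNAs guide the conversion of uridine to pseudouridine in ribosomal RNA. Each folds into a pair of hairpins joined by a hinge that holds the H box, with an ACA box near the 3′ end. Each hairpin can hold a pocket that pairs with the target around the uridine to be changed. The guide is bound by dyskerin, the pseudouridine synthase, with NHP2, NOP10 and GAR1. Most human snoRNA genes lie inside introns of host genes and are released when the intron is processed. Fewer cells with an RNA and less RNA per cell cannot be told apart in such bulk samples.

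The names could be placed in GENCODE release 29 (GRCh38) for 115 members, with annotated lengths from 121 to 249 nt and a median of 134 nt. The other 31, among them every copy with a .number in its name, were not placed. Both boxes were searched on the transcript strand only. The ACA box was taken as ACANNN at the 3′ end and was found in 91 of the 115 sequences. The H box was taken as ANANNA within 15 nt of the middle and was found in 105. Both were found in 85. By the same search, 1.44% of 278 annotated SNORD (C/D box) transcripts and 1.20% of 35116 promoter windows of 130 nt from RefSeq ended in ACANNN. The central ANANNA was far less selective, with 56.8% of the SNORD transcripts and 27.6% of the promoter windows. The abundant members whose annotation misses the ACA box at that place include SNORA33, whose annotated sequence stops with the letters of the box itself. The 3 most abundant members are shown first, 5′ to 3′ as DNA letters. The central ANANNA and an ACA at the searched place are in capitals.
SNORA33: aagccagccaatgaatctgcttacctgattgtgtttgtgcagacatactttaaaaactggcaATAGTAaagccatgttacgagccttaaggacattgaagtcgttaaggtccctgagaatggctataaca
SNORA75: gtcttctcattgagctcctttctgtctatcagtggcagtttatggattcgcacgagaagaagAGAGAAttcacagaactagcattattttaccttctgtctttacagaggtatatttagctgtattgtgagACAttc
SNORA8: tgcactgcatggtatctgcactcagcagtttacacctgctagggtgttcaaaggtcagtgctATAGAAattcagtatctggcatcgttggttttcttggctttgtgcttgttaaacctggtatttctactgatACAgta
They lie at chr6:132817219-132817348 on the plus strand in RPS12, at chr2:231455800-231455936 on the minus strand in NCL, and at chr11:93732361-93732499 on the minus strand in TAF1D.

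Counts summed over all features ran from 4016295 to 10246336 per library. A count of 0 allows up to 3 counts, which is 0.261 to 0.674 CPM (counts per 1e6 library counts, scaled by the TMM method of edgeR) in a library; this limit and the intervals on shares below cover counting error only. The SNORA rows took 0.165%, 0.197%, 0.218% and 0.193% of all counts with the scramble mimic and 0.231%, 0.185%, 0.166% and 0.179% with the tDR mimic. The widest 95% exact binomial interval was 0.213 to 0.223%, in scramble library 3. The group means were 0.193 ± 0.0217% and 0.190 ± 0.0282% (SD, n = 4 each), and the groups overlapped. Among all features, rows whose names start alike and whose counts lay within 10% or 3 counts of a larger row in each library were also taken once, which leaves 35.1 to 40.6% of all counts. The SNORA share then was 0.424 ± 0.0431% and 0.425 ± 0.0675% (SD, n = 4 each), about the same in both groups but over 2 times the share of all counts. The 4 microRNAs looked up as abundant in HEK293 were all detected, hsa-miR-92a-3p at 311 to 962 CPM. None of the 4 defines this line, so their detection does not test its identity. Of 9 microRNA markers of blood, liver, muscle, neurons and endothelium, 5 had a row, and their summed level was 4.57 to 7.64 CPM in scramble and 7.24 to 12.5 CPM in tDR libraries, with hsa-miR-126-3p at 3.68 to 8.72 CPM and the 4 others each at 0 in at least 1 library. The markers hsa-miR-142-3p, hsa-miR-142-5p, hsa-miR-451a and hsa-miR-122-5p had no row, and the part of such cells in the results was not tested.

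The SNORA rows spanned a wide range of levels. Mean levels over the 8 libraries ran from 0.218 CPM (SNORA70J, a copy of the SNORA70 family) to 79.6 CPM (SNORA33). Among the 125 members that passed the filter on low counts the median was 11.2 CPM and the highest was 69.9-fold above the lowest. The 10 rows with the most counts held 29.1% of all SNORA counts and the top 20 held 45.1%. Rows with nearly equal counts were each counted here, among them SNORA40 and SNORA40B in the top 10 (3637 and 3559 counts in all). Of the 21 members that did not pass, mean counts per library ran from 1.5 to 11. The filter asks for enough counts in at least 4 libraries, so mean counts of the tested and untested members overlap. The 2 tested members with the lowest mean count were SNORA3C (8.88 counts) and SNORA5C (9.25 counts). The 2 untested members with the highest were SNORA11D and SNORA11E, with 11 counts each and identical counts in every library. A total of 10 members had a count of 0 in at least 1 library, most often SNORA70J with 4 libraries at 0.

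SNORA33, in an intron of the ribosomal protein gene RPS12, stood first with 81.7, 87.9, 80.2 and 71.3 CPM with the scramble mimic and 77.7, 75.3, 79.9 and 82.7 CPM with the tDR mimic. The groups overlapped, and no library stood apart. SNORA75 lies in an intron of NCL, the gene of nucleolin, a major nucleolar protein. It had 74.0, 69.1, 66.7 and 63.9 CPM against 78.6, 76.8, 59.7 and 71.8 CPM. SNORA8, in TAF1D, a subunit of the factor that recruits RNA polymerase I to rRNA genes, had 65.0, 67.3, 75.0 and 61.7 CPM against 78.6, 70.5, 67.5 and 63.1 CPM. Per 100 nt of annotated length, mean scramble levels were 61.7 CPM for SNORA33, 50.0 for SNORA75 and 48.4 for SNORA8. The last pair overlapped from library to library, so their order is within the spread. SNORA40, SNORA40B, SNORA4, SNORA16A, SNORA66, SNORA9 and SNORA72 followed, with 26.6 to 44.0 CPM per 100 nt in the scramble libraries.

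**Figure D1:**
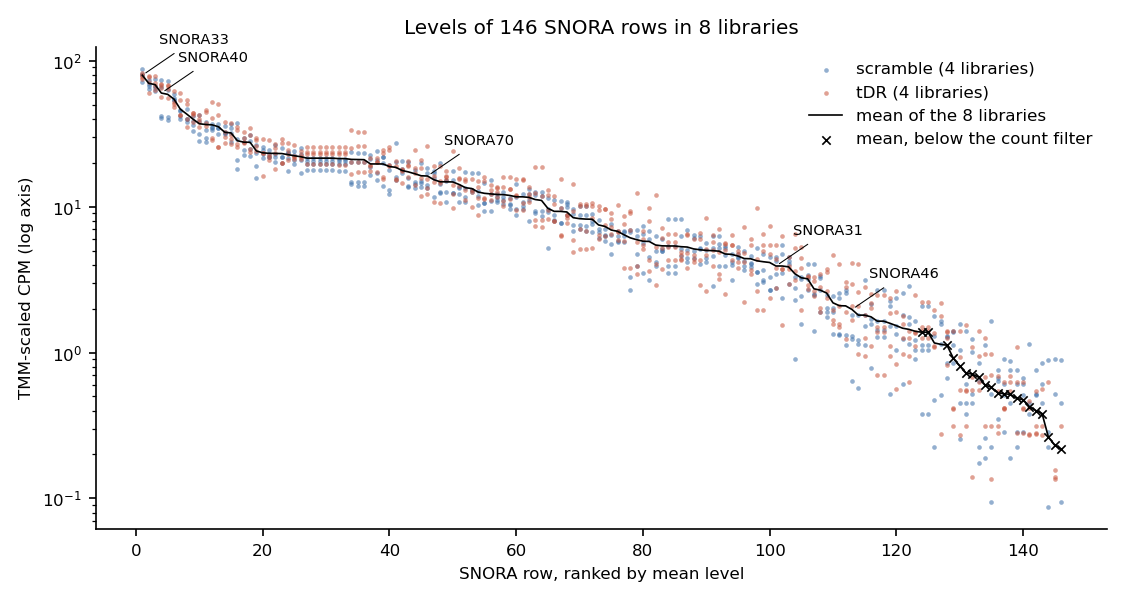
TMM-scaled CPM (log axis) of each of the 146 SNORA rows, ranked by mean level, with 1 point per library, blue for scramble and red for tDR; the line is the mean of the 8 libraries, crosses are rows below the count filter, and counts of 0 are not drawn. Points of both groups lie on the same curve from 79.6 CPM down to 0.218 CPM, and they scatter more widely at the low end.

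None of the 125 tested SNORA rows was called in the tDR libraries against the scramble libraries. The edgeR quasi-likelihood test with Benjamini-Hochberg adjustment over all 1761 tested features called 0 higher and 0 lower, where 6.7% of all tested features were called (5.34% higher and 1.36% lower). The lowest adjusted p of a member was 0.108. At an unadjusted p below 0.05 there were 5 members, or 4% of those tested, against 21.5% of all features. DESeq2 and limma-voom also called 0 members, where they called 11.2% and 6.87% of all features, and each had 5 members at an unadjusted p below 0.05. Groups did not overlap for 2 members, SNORA2C higher and SNORA28 lower, where 7.78% of all features were higher without overlap and 5.51% lower.

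Under TMM scaling over all features, the fit bounds the size of a change for most members. These bounds depend on the scaling. Scaled on microRNAs alone, SNORA2B had 0.86 on the log2 scale (95% half-width 0.53) and SNORA2C 0.69 (half-width 0.44). Those 2 intervals reach past a 2-fold change, and both members have a mean count of at least 100. The 2 are shown because they were called under that scaling. Intervals of uncalled members under it are not given here and may also reach past 2-fold. The values below are from the TMM fit over all features. The 95% interval of the log2 fold change lay inside a 2-fold change in both directions for 101 of the 125, and inside a 1.5-fold change for 49. All 53 members with a mean count of at least 100 were among the 101, with a median SE of 0.18 and fold changes from -0.17 to 0.51 on the log2 scale. Of the 55 members between 20 and 100 counts, 48 had such an interval (median SE 0.27). Of the 17 below 20 counts, 0 had one (median SE 0.44), so for each of them a 2-fold difference in at least 1 direction lay within the interval.

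**Figure D2:**
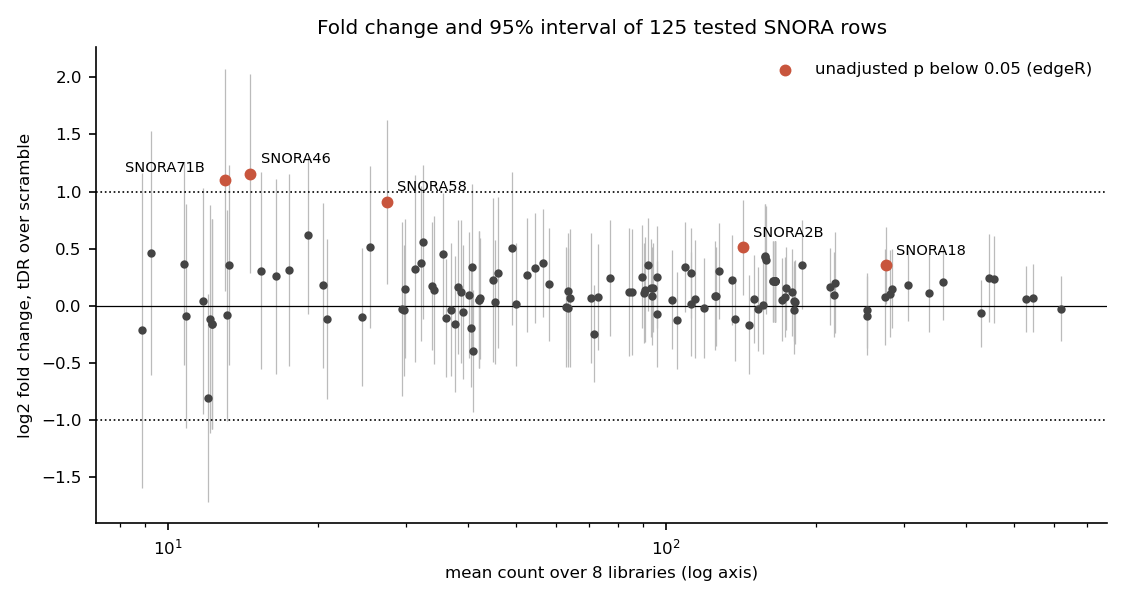
Log2 fold change, tDR over scramble, against the mean count over 8 libraries (log axis) for the 125 tested SNORA rows; bars are 95% intervals from the edgeR fit, dotted lines mark a 2-fold change, and red points are the 5 rows with an unadjusted p below 0.05. Intervals narrow from left to right, and all 53 rows with at least 100 counts stay between the dotted lines.

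The 5 members with an unadjusted p below 0.05 were all higher on average in the tDR libraries, and none passed adjustment. SNORA46, in an intron of CNOT1, the scaffold of the CCR4-NOT deadenylase, had 5, 13, 8 and 15 counts with the scramble mimic and 30, 19, 15 and 12 counts with the tDR mimic. Its levels were 1.24 ± 0.476 and 2.70 ± 1.07 CPM (SD, n = 4 each), with the lowest tDR library inside the scramble range. The fitted change was 1.15 on the log2 scale (SE 0.42, 95% interval 0.28 to 2.03, adjusted p = 0.108 by edgeR). SNORA50A, another snoRNA of CNOT1, had a level 8.97-fold higher per 100 nt in the scramble libraries. SNORA58, in an intron of the mitochondrial ribosomal protein gene MRPL3, had 2.29, 2.75, 0.898 and 3.31 CPM against 6.54, 3.12, 3.62 and 5.17 CPM. Only tDR library 2 fell inside the scramble range. Its log2 fold change was 0.91 (SE 0.34, adjusted p = 0.125 by edgeR). Its copy SNORA58B, in UBAP2L, had 86.9% identity to it, 3.30 ± 0.871 and 4.98 ± 2.06 CPM, and a fitted change of 0.56 on the log2 scale (SE 0.32, adjusted p = 0.336 by edgeR). Their sequences and that of SNORA46 are shown, with the boxes in capitals, because these members had the lowest p or are a copy of one that did. Other pairs of copies with the same number ran from 51.7% identity for SNORA74B and SNORA74D to 100% for pairs such as SNORA59A and SNORA59B.
SNORA58: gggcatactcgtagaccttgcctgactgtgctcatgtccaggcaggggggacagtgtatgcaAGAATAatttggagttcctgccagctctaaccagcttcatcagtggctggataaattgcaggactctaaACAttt
SNORA58B: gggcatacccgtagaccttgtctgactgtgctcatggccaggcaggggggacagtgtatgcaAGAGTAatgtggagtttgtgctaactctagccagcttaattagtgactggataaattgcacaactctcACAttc
SNORA46: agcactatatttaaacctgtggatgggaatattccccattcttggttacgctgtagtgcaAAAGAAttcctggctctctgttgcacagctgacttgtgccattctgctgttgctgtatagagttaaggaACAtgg
They lie at chr3:131479097-131479233 (minus strand), chr1:154259727-154259862 (plus strand) and chr16:58548499-58548633 (minus strand).

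SNORA71B, 1 of 4 SNORA71 copies in introns of the snoRNA host gene SNHG17, had 1.18 ± 0.502 and 2.43 ± 1.28 CPM (SD, n = 4 each), with a fitted change of 1.10 on the log2 scale (SE 0.47, adjusted p = 0.174 by edgeR). The highest library, tDR library 2, had 4.05 CPM and the lowest tDR library 0.977 CPM, below 3 of the 4 scramble libraries. SNORA2B, in an intron of KANSL2, a subunit of a histone acetyltransferase complex, had 13.1, 17.8, 19.3 and 12.2 CPM against 25.8, 19.2, 24.4 and 18.9 CPM. The 2 lower tDR libraries stood within the scramble range, and the log2 fold change was 0.51 (SE 0.20, adjusted p = 0.137 by edgeR). SNORA18, in TAF1D, had 33.5, 27.8, 38.0 and 29.3 CPM against 44.6, 46.0, 37.4 and 35.7 CPM, a fitted change of 0.36 on the log2 scale (SE 0.16, adjusted p = 0.212 by edgeR). SNORA15B-1 had the next lowest p, with a fitted change of 0.43 on the log2 scale (SE 0.22, adjusted p = 0.258 by edgeR). SNORA2C, a neighbour of SNORA2B in KANSL2, had 10.8 to 13.7 CPM in the scramble libraries and 13.8 to 18.4 CPM in the tDR libraries. Its log2 fold change of 0.34 (SE 0.19) had an edgeR adjusted p of 0.31. SNORA28, in an intron of the translation initiation factor gene EIF5, had 8.80 to 10.8 CPM against 7.68 to 8.77 CPM, a fitted change of -0.24 on the log2 scale (SE 0.20, adjusted p = 0.532 by edgeR).

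The most abundant rows had small fitted differences between groups. On the log2 scale SNORA33 had -0.025 (SE 0.14, adjusted p = 0.934 by edgeR), and the others had 0.068 (SE 0.14) for SNORA75, 0.059 (SE 0.14) for SNORA8 and -0.067 (SE 0.14) for SNORA4. Their 95% intervals ran from -0.36 at the lowest to 0.36 at the highest. SNORA16A, SNORA66, SNORA9 and SNORA72 had log2 fold changes of 0.21, 0.12, 0.18 and 0.15, with adjusted p from 0.488 to 0.784.

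Members that have been studied in disease or stress were also not called. SNORA13, which has been linked to p53 activation in senescent cells, had 9.01 ± 1.49 and 9.55 ± 1.94 CPM and a log2 fold change of 0.075 (95% interval -0.39 to 0.54). SNORA24, a guide studied in RAS-driven liver cancer, had 13.9 ± 2.08 and 12.7 ± 2.20 CPM and -0.13 (-0.55 to 0.29). SNORA21, studied in colorectal cancer, had 21.6 ± 3.56 and 22.4 ± 1.13 CPM and 0.054 (-0.31 to 0.42). SNORA31, in which variants have been described in herpes simplex encephalitis, had 3.74 ± 0.785 and 4.09 ± 1.12 CPM and 0.15 (-0.46 to 0.76). SNORA80E, also known as ACA42 and studied in lung cancer, had 6.06 ± 1.22 and 7.76 ± 1.08 CPM and 0.33 (-0.15 to 0.82). Their edgeR adjusted p ran from 0.434 to 0.904.

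Most members lay slightly above 0. Of the 125 tested, 94 (75.2%) had a fitted log2 fold change above 0, against 52.2% of all tested features. The share was 64.4% for SNORD rows and 54.2% for SCARNA rows (guides of Cajal bodies). Of the 125 members, 13 had counts nearly equal to a larger copy and were each counted. The median of the members was 0.12, with quartiles at 0.0067 and 0.26, and the median of all features was 0.020. With each set of nearly equal rows taken once, these medians were 0.174 and 0.115. The offset lay in tDR libraries 1 and 2. The median member stood 0.24 and 0.28 above its scramble mean in these libraries (log2 of CPM plus 0.5) and -0.015 and -0.023 in tDR libraries 3 and 4. The scramble libraries ran from -0.073 to 0.11. With tDR libraries 3 and 4 left out together the median fold change was 0.30, and with tDR libraries 1 and 2 left out together it was -0.0066. In the latter fit SNORA3C was called lower, 1 member where 8.36% of all features were (log2 fold change -2.98, edgeR adjusted p = 0.0291), on 2 counts in tDR library 3 and 0 in tDR library 4. With all libraries 43 of the 125 members were highest in tDR library 1 and 39 in tDR library 2, against 1 to 14 in each other library. Rows with equal or nearly equal counts, such as SNORA38 and its numbered rows, were each counted here. The same count was not made over all features. The median of all tested features stood 0.023 and 0.095 above the scramble mean in tDR libraries 1 and 2. Scaling also set the sign: under total counts the median of the members was -0.029 and that of all features -0.13. Scaled on microRNAs alone, these medians were 0.44 and 0.36, and SNORA46, SNORA58, SNORA2B and SNORA2C were called higher, 4 of 125 against 8.92% of all features.

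**Figure D3:**
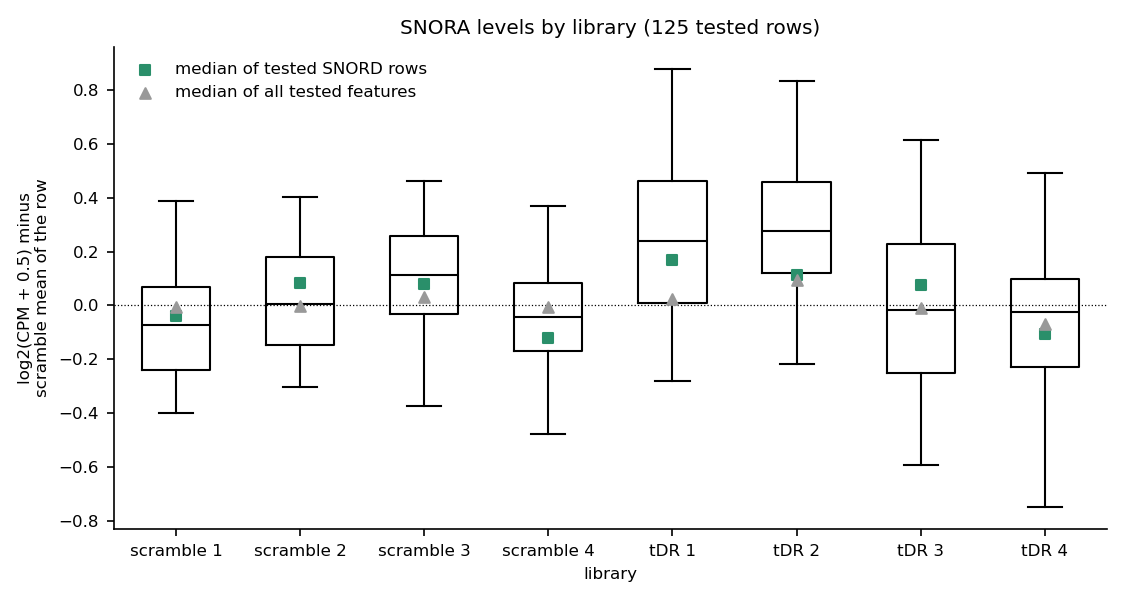
Box plots, 1 per library, of log2(CPM + 0.5) of the 125 tested SNORA rows minus the row's mean in the scramble libraries; the line is the median, the box the quartiles and the whiskers the 5th and 95th percentiles, with green squares for the SNORD median and grey triangles for the median of all features. The SNORA medians are 0.24 and 0.28 in tDR libraries 1 and 2 and near 0 in tDR libraries 3 and 4.

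The related classes gave no calls either. SNORD rows are C/D box snoRNAs, a class that includes the guides of 2′-O-methylation. Of 188 tested SNORD rows, 0 were called by edgeR and 5 had an unadjusted p below 0.05, and their median log2 fold change was 0.070. The SNORD medians by library were 0.17, 0.11, 0.077 and -0.11 in tDR libraries 1 to 4. Of 24 tested SCARNA rows, the guides of Cajal bodies, 0 were called, 2 had an unadjusted p below 0.05, and the median was 0.032. SNORA73A and SNORA73B, the U17 snoRNAs that act in rRNA cleavage, had log2 fold changes of 0.27 (SE 0.16) and 0.10 (SE 0.19). The telomerase RNA TERC, which carries an H/ACA domain, had -0.096 (SE 0.32, adjusted p = 0.908 by edgeR). In the scramble libraries the SNORA rows together had 1830 ± 123 CPM and the SNORD rows 12083 ± 806 CPM (SD, n = 4 each).

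The host genes of the placed members fall into several classes. A gene on the same strand contained 109 of the 115 placed members, 66 of them wholly within introns and 43 overlapping an exon of some transcript. Ribosomal protein genes held 18 members, with a median scramble level of 11.6 CPM per 100 nt. Translation factor genes held 8 (median 16.7), noncoding host genes 17 (6.78), other protein-coding genes 59 (3.80) and pseudogenes 7 (9.93). The pseudogene rows include SNORA15B-1 and SNORA15B-2, whose counts nearly equal those of SNORA15 in CCT6A. The median of that class therefore cannot be assigned to pseudogene hosts alone. The 6 with no host had a median of 1.29. The classes overlapped widely: in ribosomal protein genes levels ran from 0.444 (SNORA21B) to 61.7 (SNORA33) CPM per 100 nt, and in other protein-coding genes from 0.343 (SNORA50B) to 50.0 (SNORA75). Median log2 fold changes by class ran from -0.087 (no host, 5 tested) to 0.16 (noncoding hosts, 16 tested), and these differences were not tested.

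**Figure D4:**
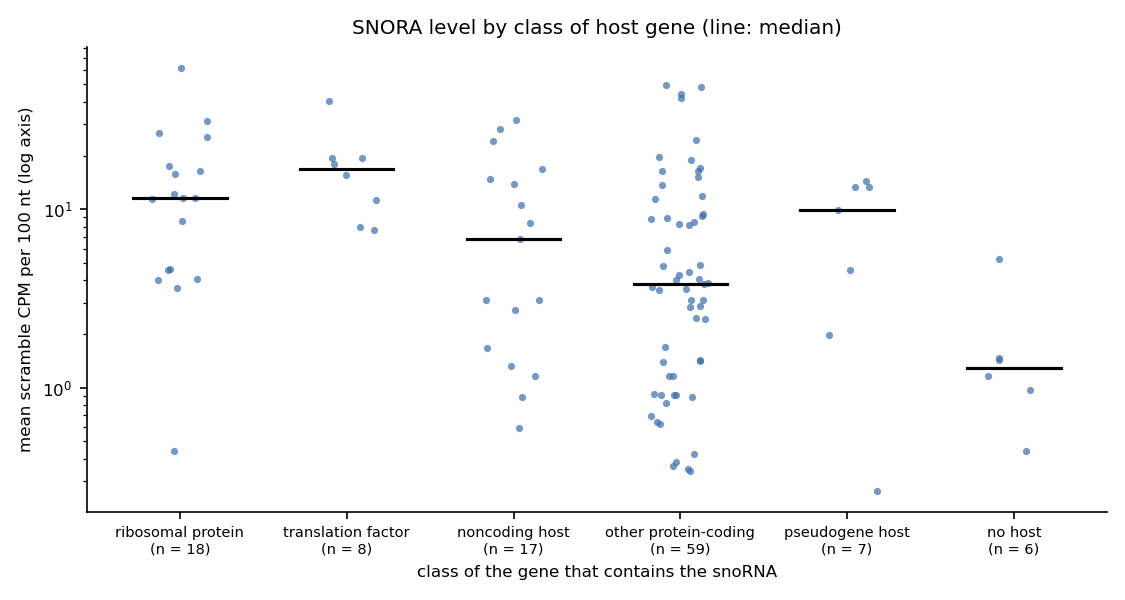
Mean scramble CPM per 100 nt of annotated length (log axis) of the 115 placed SNORA rows, 1 point each, by class of the gene that contains them on the same strand, with the median as a line. Medians are 16.7 for translation factor genes and 11.6 for ribosomal protein genes against 1.29 for rows with no host, and the ranges of the classes overlap.

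The 18 genes that held 2 or more members together held 45, and the span of levels within a host ran from 1.08-fold to 36.8-fold with a median of 3.17-fold. In 6 of the 18 the members stood within 2-fold. The closest were SNORA15B-2 and SNORA22 in the pseudogene CCT6P1, 1.08-fold apart, and SNORA62 and SNORA6 in the ribosomal protein gene RPSA were 1.43-fold apart. The hosts CCT6A, CCT6P1 and CCT6P3, all among the 6, each hold a SNORA15 copy. The SNORA15, SNORA15B-1 and SNORA15B-2 rows had nearly equal counts, so their levels cannot be assigned to a single host. TAF1D held 6, and among these the scramble level per 100 nt went from 8.19 CPM (SNORA1) to 48.4 CPM (SNORA8), a 5.91-fold span. In SNHG12, SNORA16A had 31.6 and SNORA61 3.09 CPM per 100 nt, 10.2-fold apart. In RPL23 the distance between SNORA21 and SNORA21B was 36.8-fold, and SNORA21B had 2 to 8 counts per library. In EIF4A2, the gene of an RNA helicase of translation initiation, SNORA4, SNORA81 and SNORA63 stood within 2.25-fold. DKC1, the gene of dyskerin itself, holds SNORA36A and SNORA56, with 16.3 and 8.87 CPM per 100 nt, 1.84-fold apart.

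By their number, the 146 rows formed 77 families, of which 32 had more than 1 row and together held 101 rows. Copies were marked by a letter, a .number or a number after a low line. The largest were SNORA70 with 12 rows and SNORA38 with 8, of which SNORA38 and its 6 numbered rows carried equal or nearly equal counts. In all, 16 rows lay within 10% or 3 counts of a larger copy in each library, which leaves 130 distinct rows. Sequence identity and counts were compared over 65 placed pairs of copies within families. Of 8 pairs with at least 97% identity, 5 had equal or nearly equal counts by this tolerance. Of 23 pairs from 90% to under 97% 1 did, and of 34 pairs under 90% 0 did. The SNORA15 and SNORA40 copies are shown as cases of nearly equal counts, and the SNORA10 copies as a case of unequal counts. Capitals mark the central ANANNA and the ACA as above, and the annotated sequences of SNORA40 and SNORA40B have no ACA at the searched place.
SNORA15: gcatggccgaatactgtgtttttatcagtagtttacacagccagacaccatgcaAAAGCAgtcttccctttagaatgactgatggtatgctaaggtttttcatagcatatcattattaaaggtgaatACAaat
SNORA15B-1: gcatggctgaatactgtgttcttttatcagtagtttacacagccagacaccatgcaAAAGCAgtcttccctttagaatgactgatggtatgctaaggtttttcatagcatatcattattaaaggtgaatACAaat
SNORA40: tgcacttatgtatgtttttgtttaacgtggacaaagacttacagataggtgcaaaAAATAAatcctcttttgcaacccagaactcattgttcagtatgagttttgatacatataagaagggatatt
SNORA40B: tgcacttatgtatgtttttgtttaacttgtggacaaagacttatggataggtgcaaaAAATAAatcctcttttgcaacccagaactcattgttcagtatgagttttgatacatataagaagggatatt
SNORA10: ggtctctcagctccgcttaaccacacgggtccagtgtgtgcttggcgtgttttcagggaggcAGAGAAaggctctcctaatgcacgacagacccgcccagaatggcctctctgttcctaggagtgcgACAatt
SNORA10B: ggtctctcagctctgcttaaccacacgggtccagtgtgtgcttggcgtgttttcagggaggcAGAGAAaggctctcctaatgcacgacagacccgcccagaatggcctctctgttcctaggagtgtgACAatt
SNORA15 (chr7:56060470-56060602, plus strand, CCT6A intron) and SNORA15B-1 (chr7:65070538-65070672, plus strand, in the pseudogene CCT6P3) differ by 3 edits and 1.00-fold in summed counts. SNORA40 (chr11:93735111-93735236, minus strand, TAF1D) and SNORA40B (chr2:135136628-135136755, plus strand, RAB3GAP1 intron) differ by 4 edits and 1.02-fold. SNORA10 (chr16:1962334-1962466, minus strand, RPS2) and SNORA10B (chr2:30187434-30187566, plus strand, no host) differ by 2 edits, and their summed counts differed by 3.77-fold. SNORA7A and SNORA7B also differ by 2 edits, with a 2.52-fold distance in counts. Levels of such copies are uncertain, because the sources used here do not give the rule for reads that match more than 1 copy.

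The levels of SNORA40 and SNORA40B ran in parallel and split the scramble group. SNORA40 had 40.5, 65.7, 73.7 and 41.6 CPM with the scramble mimic and 69.5, 64.8, 67.8 and 56.7 CPM with the tDR mimic. Scramble libraries 1 and 4 were below every other library, and the tDR libraries lay inside the range of the scramble group. SNORA40 had a fitted change of 0.23 on the log2 scale (SE 0.18, adjusted p = 0.505 by edgeR) and SNORA40B one of 0.25 (SE 0.18, adjusted p = 0.479 by edgeR). SNORA15 had a similar order in the scramble group, with 14.7, 20.3, 23.8 and 14.2 CPM.

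The SNORA70 copies also ran in parallel, across libraries rather than across groups. SNORA70, in the ribosomal protein gene RPL10 on the X chromosome, had 14.0, 13.4, 17.1 and 18.4 CPM with the scramble mimic and 15.5, 25.9, 13.4 and 12.1 CPM with the tDR mimic. SNORA70B, in an intron of USP34, had 3.94, 4.74, 6.96 and 6.27 CPM against 5.72, 12.5, 3.48 and 3.91 CPM. Both were highest in tDR library 2 and low in tDR libraries 3 and 4. The same library was the highest for 9 of the 9 tested SNORA70 rows. Reads may match more than 1 of these copies, so the 9 rows are not separate observations. SNORA70.6, for example, had counts nearly equal to those of SNORA70.17. The 12 rows of the family summed to 154 CPM in tDR library 2, to 89.1 CPM in tDR library 1, to 60.3 and 61.2 CPM in tDR libraries 3 and 4, and to 71.5 to 97.7 CPM in the scramble libraries. The log2 fold change of SNORA70 was 0.090 (SE 0.23, adjusted p = 0.876 by edgeR). SNORA70 and SNORA70B are 90.4% identical, and the sequences are given with the boxes in capitals because the family is the largest here.
SNORA70: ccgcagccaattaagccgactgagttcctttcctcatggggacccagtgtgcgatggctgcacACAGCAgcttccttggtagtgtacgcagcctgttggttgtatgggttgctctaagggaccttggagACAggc
SNORA70B: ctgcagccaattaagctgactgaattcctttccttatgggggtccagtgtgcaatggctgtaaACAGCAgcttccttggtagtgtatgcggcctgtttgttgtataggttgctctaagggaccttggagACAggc
They lie at chrX:154400281-154400415 (plus strand) and chr2:61417244-61417378 (minus strand).

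**Figure D5:**
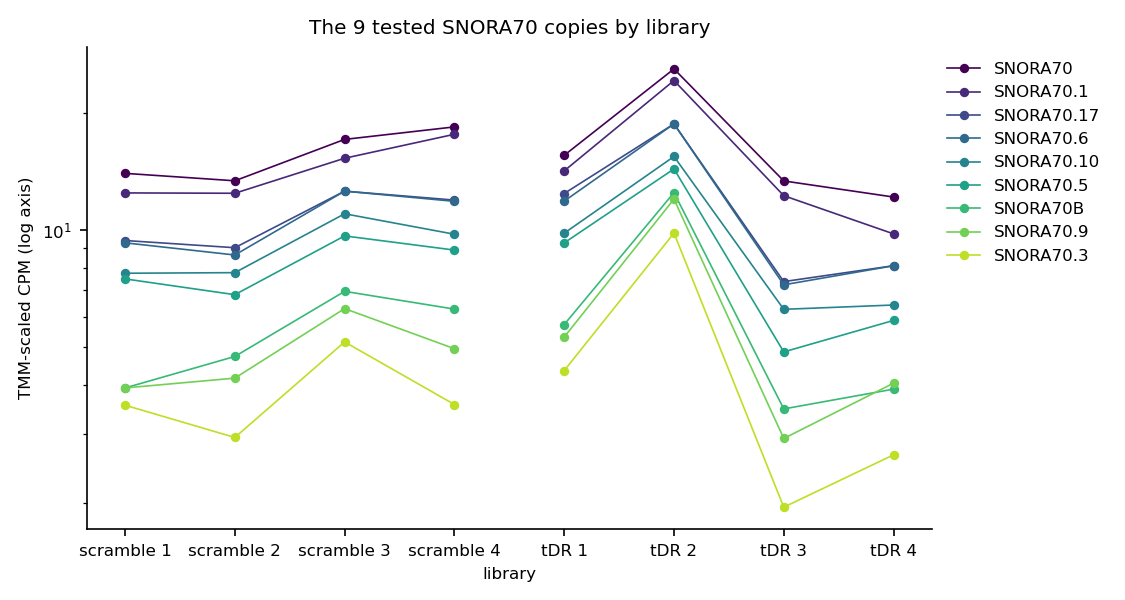
TMM-scaled CPM (log axis) of the 9 tested SNORA70 rows in each library, with lines joining the points of 1 row within a group; the order of libraries in a group has no meaning. All 9 rows are highest in tDR library 2, where SNORA70 has 25.9 CPM, and keep nearly the same order in every library.

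The ratio of copies within a family does not depend on the scaling, so it was compared between groups. For 23 families with at least 2 distinct tested rows, 41 ratios to the most abundant copy were formed. The groups overlapped for every one of them (0% of ratios without overlap). None passed a two-sided exact permutation test over 70 arrangements with Benjamini-Hochberg adjustment, and the lowest adjusted p was 0.901. The smallest raw p that 4 against 4 libraries can give is 0.0286. A single ratio at that value would not pass the adjustment over 41 ratios. The adjusted test therefore cannot decide whether the ratio of a single pair of copies shifted. SNORA3B to SNORA3A, both in RPL27A, had the lowest raw p. Their ratio was 0.418, 0.357, 0.354 and 0.278 with the scramble mimic and 0.271, 0.287, 0.206 and 0.232 with the tDR mimic. Only tDR library 2 fell inside the scramble range, by a small margin, and the log2 ratio was lower by -0.50 in the tDR libraries (exact permutation p = 0.0571, adjusted p = 0.901). The fitted log2 fold changes of the pair were 0.30 (SNORA3A) and -0.16 (SNORA3B), each with an edgeR adjusted p above the threshold (0.407 and 0.83). SNORA74A to SNORA74D, in SNHG4, and SNORA80B to SNORA80E were next, each with a raw exact permutation p of 0.143 and log2 ratio differences of 0.50 and -0.47. SNORA74D had a log2 fold change of 0.0067, SNORA74A 0.52 and SNORA80B -0.096. SNORA72.5 to SNORA72 had a difference of -0.20 (exact permutation p = 0.171) and SNORA2A to SNORA2B one of -0.48 (exact permutation p = 0.2). The rows SNORA72.5 and SNORA2A had log2 fold changes of -0.022 and 0.14. The median size of the 41 differences was 0.17 on the log2 scale.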

How the data were processed

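Small RNA of HEK293 cells was measured by OTTR-seq in 4 scramble and 4 tDR libraries, grouped by the labels. The authors deposited raw counts, whole numbers for each feature. Their second deposited file holds a normalized signal, each count divided by a factor per library; how those factors were made was not given in the sources used here. Per the submitters' processing notes, the build was hg38. Aligner, counter and annotation were not given in the sources used here. Rows scr and scr2 name no gene and stayed out; they held 0.353 to 0.565% of counts in scramble and 0.000749 to 0.00389% in tDR libraries.

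All 2962 features were fitted by the quasi-likelihood F test of edgeR 4.0.16 in R 4.3.3 (robust, TMM scaling, low counts removed by filterByExpr within groups) with a Benjamini-Hochberg adjusted p below 0.05 as threshold. SE is the size of the log2 fold change over the square root of F. The biological coefficient of variation was 19.0%. Alternatives used DESeq2 1.42.0 and limma 3.58.1. The fit was tested on simulated data. Ratios of copies used a prior count of 0.5. Copies of 1 library were looked for over 12 replicate pairs; every pair differed by a chi-square of at least 15.6 per degree of freedom. Places and snoRNA sequences are those of GENCODE release 29 (GRCh38), promoter windows those of RefSeq (GRCh38.p14).

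Named were called members, the 10 most abundant, the 6 with the lowest p, up to 5 families with the lowest ratio p, members at the filter and SNORA13, SNORA21, SNORA24, SNORA31 and SNORA80E. All other members named were chosen after their values were seen. The members and lists were chosen with earlier results of these data known. Leaving out 2 tDR libraries together was chosen after seeing the data.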

Additional observations from a re-analysis of the deposited data

Results flagged for a closer look

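In 64 sets of 4 libraries, the scramble and tDR groups of the 32 members named by rule, 1 library stood apart from its group by more than Dixon's 95% limit, where chance alone gives about 1 in 20. SNORA24 had 17.0 CPM in scramble library 2 against 12.5 to 13.0 CPM in the other scramble libraries. The log2 fold change of SNORA24 was -0.13 with all libraries, and its call did not depend on that library.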

How the results depend on the processing

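The count of 0 SNORA calls, higher and lower, held under 10 of the 11 other settings of scaling, filter, test and file, and without each library in turn (0 to 0). The exception was TMM on microRNAs alone, with 4 higher. With tDR libraries 1 and 2 left out together 1 was called lower, and with tDR libraries 3 and 4 left out together 0 were called. In the latter fit 23 of 128 members had an unadjusted edgeR p below 0.05. The share of all features at that p in the same fit is not given here, so the 23 are no result about the members. With all libraries that share was 21.5%. No paired structure was seen: same-numbered libraries had correlations of -0.345 to -0.12, and the replicate block gave 0 SNORA calls and 39 calls over all features. Over all features the count of 118 became 194 with the DESeq2 Wald test, 185 with limma on the deposited normalized signal (plus 1), 327 without tDR libraries 1 and 2, and 65 to 164 without single libraries (65 without scramble library 2, 70 without scramble library 3). The median SNORA log2 fold change was -0.029 under total counts, 0.44 with TMM on microRNAs alone, -0.0066 without tDR libraries 1 and 2, 0.30 without tDR libraries 3 and 4, and 0.066 to 0.21 without single libraries. Relative to the median of all features it was 0.043 to 0.26 over all settings. The share difference stayed from -0.0165 to 0.00533 percentage points without single libraries. Ratios without overlap numbered 0 to 2 without single libraries, 12 without tDR libraries 1 and 2 and 7 without tDR libraries 3 and 4, where fewer libraries overlap less. The lowest adjusted exact permutation p of those 2 settings was 0.342 and 0.586. With 4 against 2 libraries even the smallest raw p is above 0.05, so these values decide nothing about the ratios.

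Signs of uncalled members turned in 56 cases, none passing the test. Under total counts the values were -0.069 (SNORA75), -0.085 (SNORA8), -0.027 (SNORA66), -0.13 (SNORA74D), -0.060 (SNORA13), -0.083 (SNORA21) and -0.086 (SNORA70). With TMM on microRNAs alone they were 0.33 (SNORA33), 0.30 (SNORA4), 0.11 (SNORA3B), 0.24 (SNORA80B), 0.31 (SNORA72.5), 0.19 (SNORA24) and 0.090 (SNORA28). SNORA74D was -0.022 with DESeq2 size factors, -0.073 with TMM on SNORD rows, -0.0073 with no filter, -0.073 with a mean count of at least 50, -0.022 with the DESeq2 Wald test and -0.026 with limma-voom. SNORA33 and SNORA72.5 were 0.025 and 0.0091 on the deposited normalized signal. With shared reads taken once, SNORA33, SNORA4 and SNORA72.5 were 0.052, 0.0082 and 0.040. Without tDR libraries 1 and 2 the values were 0.028 (SNORA33), -0.048 (SNORA75), -0.030 (SNORA8), -0.014 (SNORA16A), -0.13 (SNORA66), -0.32 (SNORA74D), -0.38 (SNORA2A), -0.18 (SNORA13), -0.16 (SNORA31) and -0.29 (SNORA70). Without tDR libraries 3 and 4 they were 0.20 (SNORA3B), 0.19 (SNORA72.5) and 0.027 (SNORA24). Without single libraries the ranges were -0.091 to 0.014 (SNORA33), -0.15 to 0.11 (SNORA74D), -0.15 to 0.12 (SNORA72.5), -0.19 to 0.22 (SNORA70), -0.058 to 0.18 (SNORA13), -0.067 to 0.13 (SNORA21), -0.025 to 0.30 (SNORA31), -0.0060 to 0.11 (SNORA8) and -0.19 to 0.37 (SNORA2A). The cause of these changes was not tested. Depth limits the members below 20 counts most.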
